A study of Mus musculus with 16 samples.

Results

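Fatty acid beta-oxidation and ketogenesis were examined as 39 genes taken from a list of symbols and found among the 55487 genes of the deposited tables by an exact match of the symbol. Of these, 21 encode proteins of the mitochondrion, 9 proteins of the peroxisome, 4 proteins placed in both organelles (Crat, Acad11, Eci2 and Ech1) and 5 proteins found elsewhere (Slc22a5, Slc16a1, Aldh3a2, Vnn1 and Creb3l3). All 39 passed the filter on low counts, which left 13905 genes to be tested.

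The RNA came from livers of C57/Bl6J mice on a high-fat diet, and all 16 libraries carry the genotype written J1 J2 lf/lf. The series concerns splice isoforms of JNK, a family of stress-activated kinases encoded by Mapk8 and Mapk9, changed in hepatocytes. There were 5 control libraries named GFP, 5 named Cre, which the series text ties to the isoforms called 7a, and 6 named Flpo, which it ties to those called 7b. Cre and Flpo are the names of site-specific recombinases and GFP that of a fluorescent protein that leaves DNA as it is, and the labelled genotype is the same in every group, controls included. The labels do not say how the recombinases were delivered, nor that each library is a separate mouse, and the p-values therefore rest on library-to-library spread, which may be technical.

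In beta-oxidation, a fatty acid is activated to its coenzyme A ester and shortened from the carboxyl end in repeated rounds of dehydrogenation, hydration, a further dehydrogenation and thiolysis. Mitochondria take up long-chain acids through the carnitine shuttle and oxidise most dietary chains, while peroxisomes shorten very long, branched and dicarboxylic chains with a separate set of enzymes. In the fasted or fat-fed liver, the acetyl units formed in mitochondria are turned into ketone bodies that leave the hepatocyte for other tissues, and many genes of both organelles are targets of the nuclear receptor PPAR-alpha.

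The libraries held 27929393 to 36043322 estimated counts. Summed over 10 defining hepatocyte genes, abundance was 86300.1 to 118603 TPM (transcript abundance scaled for gene length and library size), while 4 fat genes summed to at most 1.35 TPM and 3 muscle genes to at most 0.122 TPM. Mup transcripts took 2.24 to 3.91% of the counts in the GFP libraries, 1.95 to 6.49% in Flpo and 5.65 to 13.8% in Cre. The kinase genes Mapk8 and Mapk9 were not called in any comparison, and a level of the whole gene does not check which isoform is made. Serial numbers in the library names follow the groups, and a batch and the group cannot be told apart. Because the samples are whole liver, fewer cells of a type and less RNA per cell cannot be told apart.

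In these livers the pathway was abundant. The thiolase Acaa1b was the highest of the 39 genes at a mean of 1951 TPM over all libraries, followed by the mitochondrial thiolase Acaa2 at 962 TPM, the electron carrier subunit Etfb at 673 TPM and the acyl-CoA synthetase Acsl1 at 644 TPM. In GENCODE M21, 67.3% of the 50-base stretches of Etfb also occur in Gm45233, and 53.0% of its exon bases overlap that gene on the same strand. Gm45233 has no row under that symbol in the deposited data. How reads from the shared stretches were counted is not given, so the level of Etfb is uncertain. The lowest was the peroxisomal fatty acid transporter Abcd2 at 10.1 TPM. The 21 mitochondrial genes together reached 6350.0 ± 347 TPM in GFP (mean ± SD over 5 libraries), 6796 ± 319 in Flpo (6 libraries) and 6066 ± 912 in Cre (5 libraries). The 9 peroxisomal genes reached 3820.2 ± 483 TPM in GFP, 4287 ± 1077 in Cre and 3814 ± 432 in Flpo, and no difference was tested on these sums.

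Against the GFP controls, the Cre livers had 6 members higher and 2 lower, called by edgeR's quasi-likelihood test at a Benjamini-Hochberg adjusted p under 0.05 over all genes tested. The background was 9.55% of all genes called, made up of 3.97% of all genes higher and 5.58% lower. The higher members were Ehhadh of the peroxisome, Hadha, Hadhb and Cpt1a of the mitochondrion and the plasma membrane transporters Slc16a1 and Slc22a5. The lower members were Hadh and Echs1, both mitochondrial. With library totals in place of TMM scaling, the count was 2 higher (Ehhadh and Slc16a1) and 2 lower (Hadh and Echs1), and with limma on log2(TPM + 1) it was 2 higher and 3 lower. The calls over all genes moved as well, from 552 higher and 776 lower to 300 higher and 1656 lower with library totals and to 216 higher and 1888 lower with limma on log2(TPM + 1).

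The 39 fold changes had a median of 0.14 on the log2 scale with 27 above 0, beside a median of 0.00 over all genes, of which 50.2% were above 0. Under library totals the median of all genes moved to -0.14 and that of the members to -0.00. A change of scaling moves every gene in a comparison by about the same amount, so the distance between these medians was nearly fixed beforehand. With limma on log2(TPM + 1) the medians were -0.12 over all genes and -0.05 over the members. Of the 39, 12 had an unadjusted p under 0.05, where 24.3% of all genes did. In Flpo against GFP no member was called by edgeR, against a background of 0.0288%, and DESeq2 called none either. Their median was 0.05 with 26 above 0, where 49.1% of all genes were, and 3 members had an unadjusted p under 0.05 (Acadsb, Eci2 and Slc16a1), where 9.73% of all genes did. In Flpo against Cre, 2 members were higher and 5 lower, against a background of 13.7% of all genes called. That background was made up of 7.45% of all genes higher and 6.26% lower. Hadh and Echs1 were the higher members, and Ehhadh, Crot, Hadhb, Slc22a5 and Slc16a1 the lower ones. The split was 4 higher and 2 lower with library totals, and 8 higher and 2 lower with limma on log2(TPM + 1). All genes shifted the same way, from 1036 higher and 870 lower to 1810 and 454 with library totals and to 2417 and 326 with limma on log2(TPM + 1). The median was -0.08 with 14 members above 0, where 49.4% of all genes were, and 9 had an unadjusted p under 0.05, where 27% did. In Cre against GFP the libraries of 4 members did not overlap between groups (Ehhadh, Slc16a1, Cpt1a and Hadh), as in 8.2% of all genes, and in Flpo against Cre those of 3 (Ehhadh, Slc16a1 and Hadh), as in 7.84%. No member's libraries were without overlap in Flpo against GFP, where 1.55% of all genes were. Both comparisons with GFP share the same 5 control libraries, and both comparisons with Cre share the 5 Cre libraries.

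**Figure D1:**
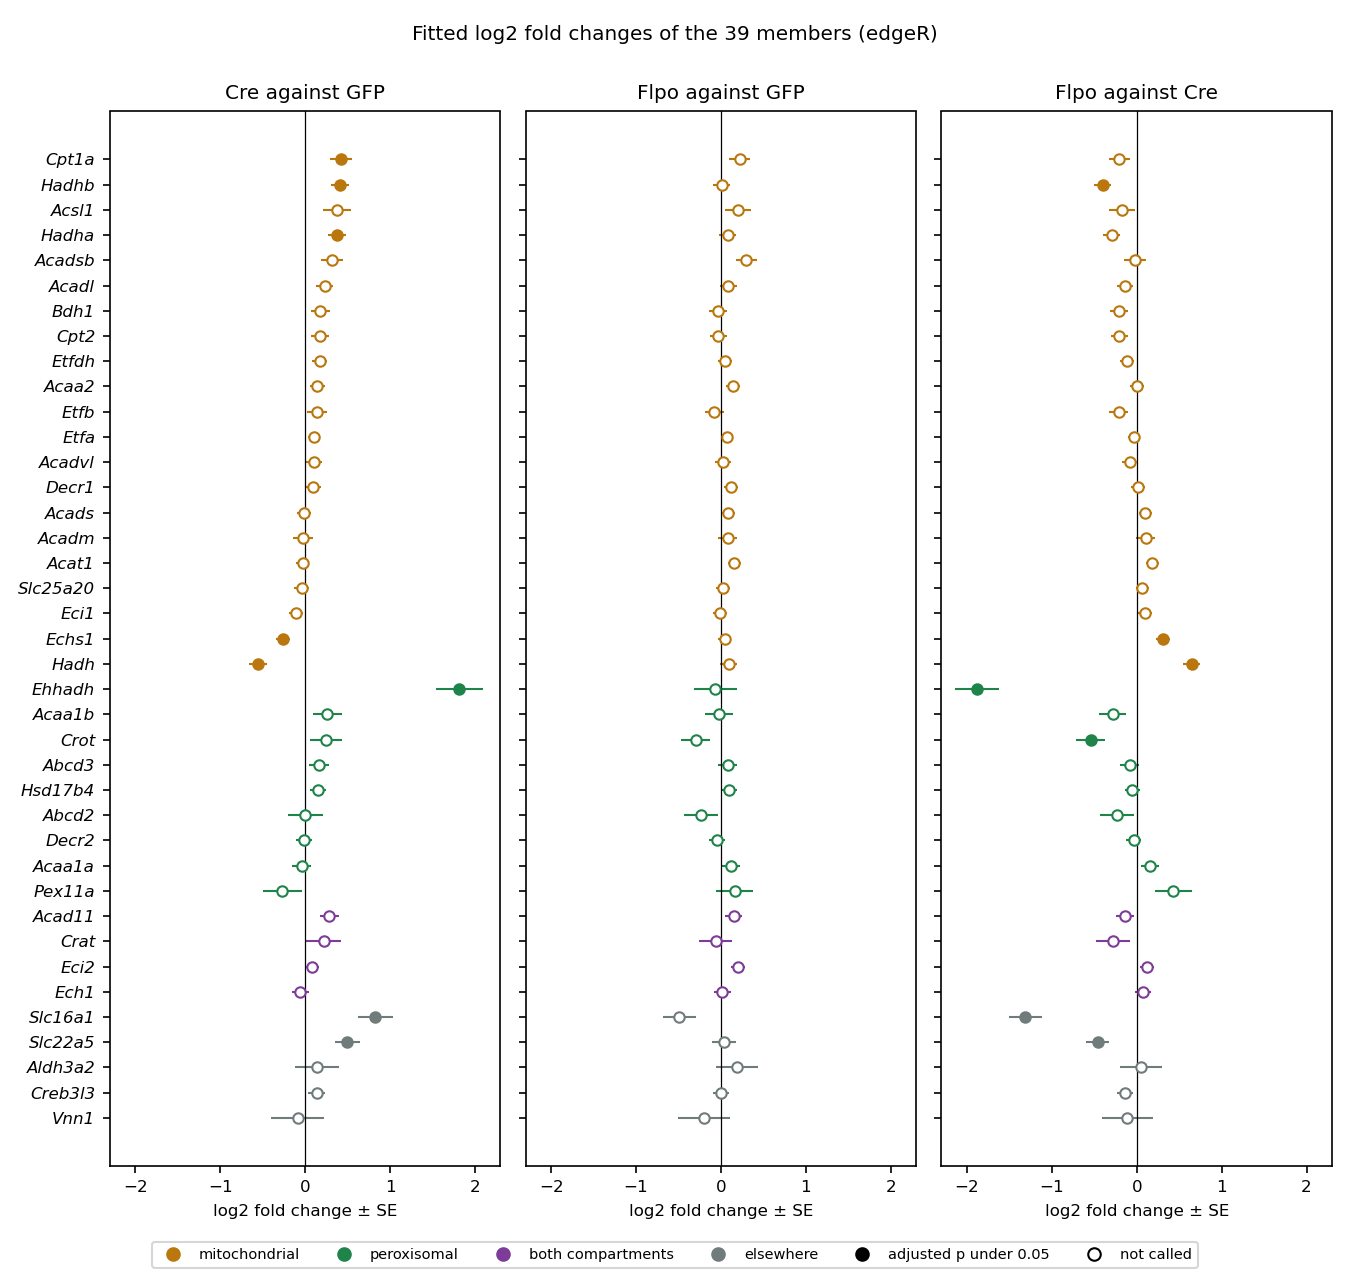
Fitted log2 fold change of each of the 39 genes in the 3 comparisons, with bars of 1 standard error. Colour gives the compartment and a filled point an adjusted p under 0.05: 8 points are filled for Cre against GFP, 7 for Flpo against Cre and 0 for Flpo against GFP.

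Among the 39 members the largest change was in Ehhadh, which encodes the peroxisomal bifunctional enzyme that hydrates and dehydrogenates the chain and is a classical PPAR-alpha target. The gene lies on chromosome 16 from 21761287 to 21787807 on the minus strand of GRCm38. The GFP libraries stood at 553, 544, 372, 600.2 and 446 CPM (counts scaled to library size with TMM factors). The Cre libraries, numbered 1 to 5, stood at 875, 1533, 1411, 1544 and 3485 CPM. Flpo had a lowest of 416, a median of 435 and a highest of 618 CPM. Every Cre library was above every GFP and Flpo library, and Cre 5 stood far above the other Cre libraries.

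The log2 fold change of Ehhadh was 1.81 ± 0.28 (SE) in Cre against GFP, a 3.52-fold difference (edgeR adjusted p = 0.000677). It was -1.88 ± 0.26 in Flpo against Cre (adjusted p = 0.000188). Without Cre 5 the difference from GFP was 1.42, and over all single-library omissions it ran from 1.42 to 1.99. In Flpo against GFP it was -0.06, with a 95% interval from -0.56 to 0.44. The 250 bases before the RefSeq start of Ehhadh, the member with the largest change, are given for reference at chr16:21787835-21788084 on the minus strand (GRCm38.p6), read 5′ to 3′ along the gene and in lower case throughout because none of the motifs searched occurs in them.
Ehhadh: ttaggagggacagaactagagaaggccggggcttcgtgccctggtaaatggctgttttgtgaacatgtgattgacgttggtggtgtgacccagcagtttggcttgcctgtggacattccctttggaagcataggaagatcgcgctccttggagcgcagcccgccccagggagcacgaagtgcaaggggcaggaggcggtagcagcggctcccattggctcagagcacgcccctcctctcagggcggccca

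None of the other 8 peroxisomal members was called in Cre against GFP. Hsd17b4 encodes the D-bifunctional protein, which catalyses the same pair of steps on branched chains and bile acid precursors, and it was not called in any comparison (0.15 ± 0.09 in Cre against GFP, adjusted p = 0.356). The ratio of Ehhadh to Hsd17b4 in TPM, which does not depend on library scaling, was 0.538 to 0.789 in GFP, 0.547 to 0.722 in Flpo and 1.34 to 3.77 in Cre. Ehhadh was thus below Hsd17b4 in each GFP and Flpo library and above it in each Cre library. The peroxisomal thiolases act last in each round. Acaa1b stood at 0.26 ± 0.17 and Acaa1a at -0.04 ± 0.11 as log2 fold changes in Cre against GFP, and neither was called. They are near copies, with 35.6% and 34.0% of their 50-base stretches present in the other, so how reads were split between them is uncertain.

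Crot, the peroxisomal carnitine octanoyltransferase that prepares shortened chains for export, was the other peroxisomal member called in any comparison. GFP stood at 1232, 1087, 835, 1109 and 828 CPM and Cre at 1065, 1403, 1292, 1367 and 908 CPM. The lowest, median and highest Flpo libraries were at 597, 779 and 1280.0 CPM. The groups overlapped, with Flpo 1 in the range of the other groups and the remaining 5 Flpo libraries below every Cre library. Its fitted log2 fold change was -0.54 ± 0.18 in Flpo against Cre (edgeR adjusted p = 0.0472), a call kept in 5 of the 16 fits that left out 1 library (GFP 1, GFP 3, GFP 5, Cre 5 or Flpo 1). In the other fits the adjusted p was up to 0.114. Crot was 0.25 ± 0.18 in Cre against GFP and -0.30 ± 0.18 in Flpo against GFP, neither called.

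Of the remaining peroxisomal members none was called. Abcd3, an acyl-CoA transporter of the peroxisome, stood at 557 to 740.5 CPM in GFP, 578 to 930.5 in Cre and 631 to 758 in Flpo. Its paralogue Abcd2 stood between 31.1 and 78.5 CPM, both extremes in Cre. Decr2, the reductase for unsaturated chains, differed by at most 0.05 on the log2 scale in any comparison. Pex11a, which promotes peroxisome division, was -0.27 ± 0.23 in Cre against GFP, with Cre 1 at 78.5 CPM and the other Cre libraries at 191 to 252 CPM.

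Within the mitochondrion, 5 of 21 members were called in Cre against GFP, where 9.55% of all genes were: Hadha, Hadhb, Cpt1a, Hadh and Echs1. Hadha and Hadhb encode the subunits of the trifunctional protein of the inner membrane, which carries out hydration, dehydrogenation and thiolysis of long chains. Echs1 and Hadh encode the soluble matrix hydratase and dehydrogenase that perform the first 2 of those steps on shorter chains. Hadha and Hadhb were higher in Cre than in GFP, and Echs1 and Hadh were lower.

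For Hadhb, the GFP libraries stood at 363, 348, 318, 385 and 321 CPM and the Cre libraries at 373, 464, 412, 540.2 and 513 CPM. Across Flpo the values were 302 at the lowest, 344 at the median and 405 CPM at the highest. Of the Cre libraries, 4 were above every GFP and Flpo library, and Cre 1 was within their range. The log2 fold change was 0.41 ± 0.11 in Cre against GFP (edgeR adjusted p = 0.0213) and -0.40 ± 0.10 in Flpo against Cre (adjusted p = 0.0133). Another entry of GENCODE M21, Gm13910, holds 61.5% of the 50-base stretches of Hadhb but has no row under that symbol in the deposited data. How reads from the shared stretches were counted is not given, so the count of Hadhb is uncertain.

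For Hadha, the GFP libraries stood at 531, 542, 524, 599 and 539.5 CPM and the Cre libraries at 550.1, 691, 652, 778 and 872 CPM. Flpo had a lowest of 514, a median of 572 and a highest of 659.9 CPM. Cre 1 was again the only Cre library inside the GFP range, and Cre 3 was also below the highest Flpo library. Its fitted log2 fold change was 0.37 ± 0.11 in Cre against GFP (edgeR adjusted p = 0.0348) and -0.29 ± 0.10 in Flpo against Cre (adjusted p = 0.0641, not called). In Cre against GFP the call for Hadha was lost without GFP 1, GFP 2, GFP 3, GFP 5, Cre 2, Cre 4 or Cre 5 (adjusted p up to 0.0841), and that for Hadhb without GFP 3 or GFP 5 (up to 0.0551).

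Hadha and Hadhb are neighbours that are transcribed in opposite directions. Hadha lies on chromosome 5 from 30118304 to 30155162 on the minus strand and Hadhb from 30155248 to 30184593 on the plus strand of GRCm38, and their RefSeq starts are 273 bases apart. The ratio of Hadha to Hadhb in TPM was 0.880 to 1.01 in GFP, 0.868 to 1.02 in Cre and 0.977 to 1.03 in Flpo, so the pair kept nearly equal abundance in every library. The 85 bases between the GENCODE bounds of the genes, at chr5:30155163-30155247, are shown as the stretch that separates the pair. By RefSeq, Hadha starts at 30154980 and Hadhb at 30155253, both inside those bounds. The bases are from a RefSeq window (GRCm38.p6, plus strand), in lower case because they hold none of the motifs searched.
Hadha-Hadhb interval: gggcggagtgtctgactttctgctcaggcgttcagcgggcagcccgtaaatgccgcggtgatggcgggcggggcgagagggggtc

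Hadh was the mitochondrial member with the smallest p. The GFP libraries stood at 490.4, 473, 493, 477 and 529.8 CPM and the Cre libraries at 291, 371, 332, 408 and 274 CPM. The lowest, median and highest Flpo libraries were at 466, 529 and 570.2 CPM. Every Cre library was below every GFP and Flpo library, without overlap. The log2 fold change was -0.55 ± 0.10 in Cre against GFP (edgeR adjusted p = 0.00249) and 0.65 ± 0.10 in Flpo against Cre (adjusted p = 0.000362). Hadh lies on chromosome 3 from 131233419 to 131272101 on the minus strand.

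For Echs1, the GFP libraries stood at 253, 255, 244, 236 and 266 CPM and the Cre libraries at 242, 197, 206, 210.4 and 188 CPM. Across Flpo the values were 234 at the lowest, 260.1 at the median and 285 CPM at the highest. Cre 1 lay inside the range of the other groups and the remaining Cre libraries lay below it. Its fitted log2 fold change was -0.27 ± 0.08 in Cre against GFP (edgeR adjusted p = 0.0482), a call kept in 1 of the 16 fits that left out 1 library, the one without Cre 1, with an adjusted p of up to 0.113 in the others. It was 0.31 ± 0.08 in Flpo against Cre (adjusted p = 0.0136), kept in 16 of 16. The ratio of Hadhb to Hadh in TPM was 0.526 to 0.700 in GFP, 0.525 to 0.616 in Flpo and 1.08 to 1.62 in Cre. This puts Hadhb below Hadh in every GFP and Flpo library and above it in every Cre library. The ratio of Hadha to Echs1 did overlap, at 0.895 to 1.12 in GFP, 0.895 to 1.09 in Flpo and 1.01 to 2.04 in Cre. Cre 1, at 1.01, lay inside the range of the other groups.

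**Figure D2:**
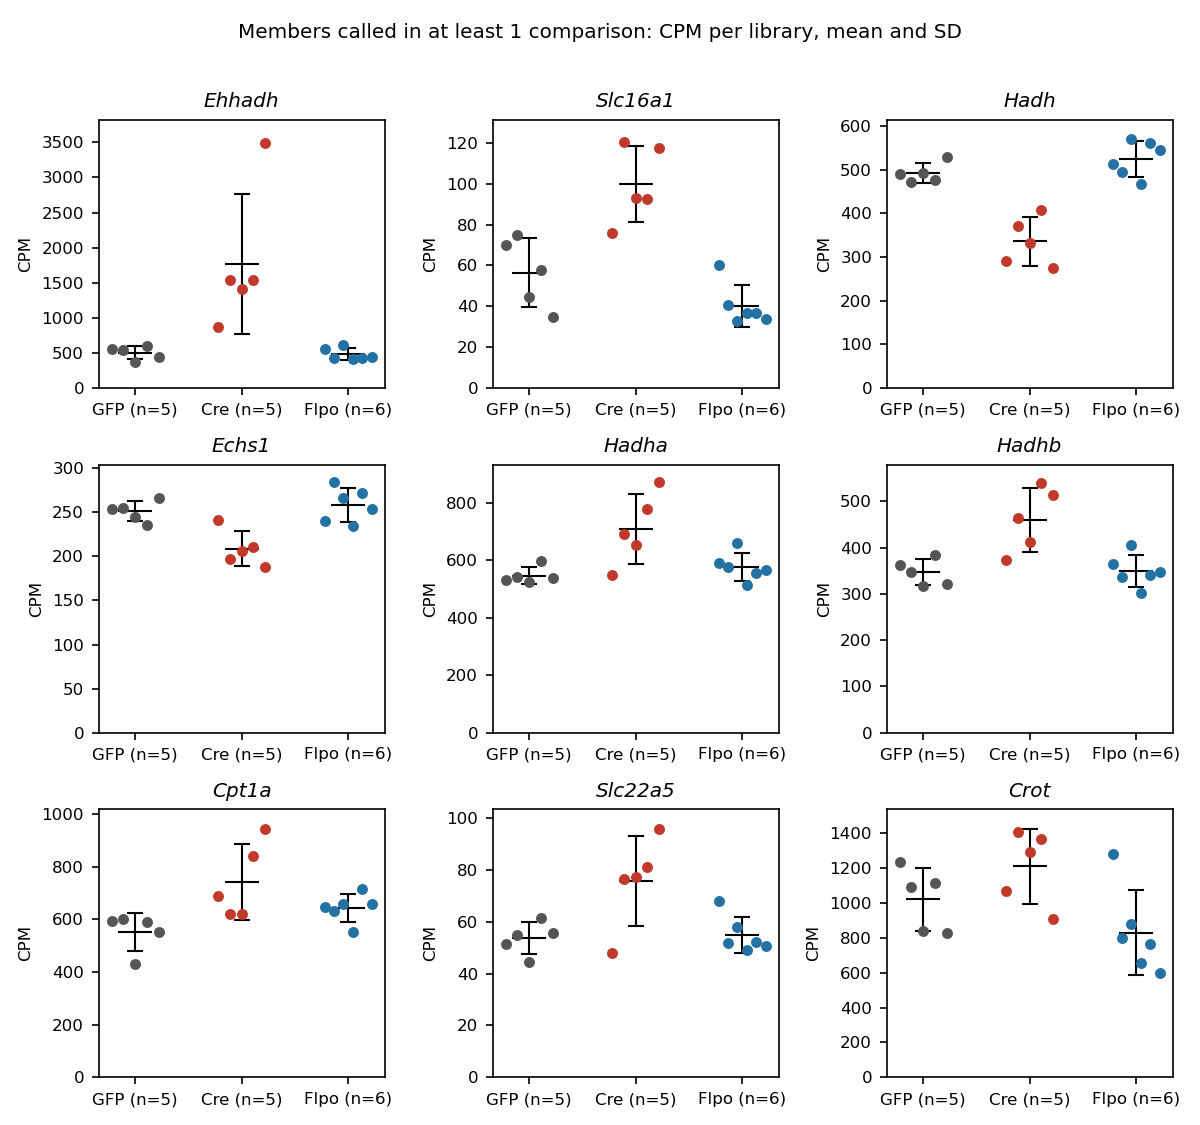
CPM of the 9 members called in at least 1 comparison, with 1 point per library and bars for the mean and SD of each group, on linear axes that start at 0. Ehhadh and Slc16a1 show every Cre point above the GFP and Flpo points, and Hadh shows every Cre point below them.

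Acaa2, the mitochondrial thiolase for medium chains, was not called in any comparison (0.14 ± 0.09 in Cre against GFP). The acyl-CoA dehydrogenases open each round and are divided by chain length, and 0 of 6 were called in any comparison. Acadvl, for very long chains, had a log2 fold change of 0.11 in Cre against GFP, Acadl for long chains 0.23, Acadm for medium chains -0.02 and Acads for short chains -0.02. Acadsb, for short branched chains, was 0.32 ± 0.13 in Cre and 0.30 ± 0.13 in Flpo against GFP (adjusted p = 0.136 and 0.456). Acad11, which handles long and hydroxylated chains, was 0.29 ± 0.11 in Cre against GFP (adjusted p = 0.108). Of the exon bases of Acadvl, 42.9% overlap Dvl2 on the opposite strand. Dvl2 averaged 1.51 TPM over all libraries, beside 326 TPM for Acadvl. The strand setting of the counting is not given in the sources used here.

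The electron carriers that pass electrons from these dehydrogenases to the respiratory chain were not called in any comparison. Etfa, Etfb and Etfdh differed from GFP by 0.11, 0.14 and 0.17 on the log2 scale in Cre and by 0.07, -0.08 and 0.05 in Flpo. The 5 auxiliary enzymes that prepare unsaturated chains were also not called: Eci1, Eci2, Ech1, Decr1 and Decr2 lay between -0.11 and 0.10 in Cre against GFP. Eci2 was 0.20 ± 0.08 in Flpo against GFP (adjusted p = 0.442). On log2(TPM + 1) with limma, Eci1 was lower in Cre at -0.30 (adjusted p = 0.0266).

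Activation and the carnitine shuttle feed the pathway. Cpt1a, the outer membrane carnitine palmitoyltransferase that controls entry into mitochondria, stood at 595, 600.5, 429.6, 588 and 551 CPM in GFP and 687, 619, 619, 839 and 944 CPM in Cre. Flpo had a lowest of 551, a median of 653 and a highest of 715 CPM. The Cre libraries lay above GFP, their lowest value being 619 against a GFP highest of 600.5 CPM, and they overlapped Flpo. The log2 fold change was 0.42 ± 0.13 in Cre against GFP (edgeR adjusted p = 0.0397), -0.20 ± 0.12 in Flpo against Cre and 0.22 ± 0.12 in Flpo against GFP, the last 2 not called. The Cre call was kept in 12 of the 16 fits that left out 1 library and was lost without GFP 3, GFP 5, Cre 4 or Cre 5 (adjusted p up to 0.101).

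Slc22a5 encodes the plasma membrane carnitine transporter OCTN2. GFP stood at 51.2, 54.9, 44.5, 61.3 and 55.6 CPM and Cre at 47.8, 76.2, 77.2, 80.9 and 95.7 CPM. The lowest, median and highest Flpo libraries were at 48.9, 52.0 and 67.9 CPM. Cre 1 lay within the GFP range, and Cre 2 to Cre 5 lay above every GFP and Flpo library. Its fitted log2 fold change was 0.50 ± 0.14 in Cre against GFP (edgeR adjusted p = 0.0361) and -0.46 ± 0.14 in Flpo against Cre (adjusted p = 0.032), kept in 8 and 9 of the 16 fits that left out 1 library. The call against GFP was lost without GFP 1, 2, 3 or 5 or Cre 2, 3, 4 or 5 (adjusted p up to 0.0939), and that against Cre without Cre 2, 3, 4 or 5 or Flpo 4, 5 or 6 (up to 0.0916). Slc22a21, which stood at 0.189 TPM, holds 26.95% of its 50-base stretches.

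Cpt2 and the carnitine carrier Slc25a20, which complete the transfer across the inner membrane, were not called (0.17 ± 0.11 and -0.04 ± 0.09 in Cre against GFP). Crat, the carnitine acetyltransferase, ranged from 96.0 to 239.7 CPM within Cre alone. Acsl1, the main hepatic long-chain acyl-CoA synthetase, stood at 1812, 1885, 1252, 2006 and 1949.5 CPM in GFP and 1396, 2157, 2556, 2865 and 2564 CPM in Cre. GFP 3 and Cre 1 were the lowest of their groups, and the groups overlapped (0.37 ± 0.16, edgeR adjusted p = 0.162). Without Cre 1, Acsl1 at 0.52 and Acad11 at 0.38 were also called higher in Cre, and 10 members were called in place of 8.

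Of the 3 ketone body members, Slc16a1 was called and Acat1 and Bdh1 were not. Slc16a1 encodes the monocarboxylate transporter MCT1, which moves ketone bodies and lactate across the plasma membrane, and its gene occupies 104638668 to 104658462 of chromosome 3, plus strand. GFP stood at 70.0, 75.0, 44.3, 57.7 and 34.9 CPM and Cre at 76.1, 121, 92.8, 92.4 and 117 CPM. Across Flpo the values were 32.9 at the lowest, 36.8 at the median and 60.2 CPM at the highest. Every Cre library was above every GFP and Flpo library, although Cre 1 exceeded the highest GFP library by little. The log2 fold change was 0.83 ± 0.21 in Cre against GFP (edgeR adjusted p = 0.0177) and -1.31 ± 0.20 in Flpo against Cre (adjusted p = 0.000356). In Flpo against GFP it was -0.49 ± 0.20 (adjusted p = 0.436), with 5 of 6 Flpo libraries below 4 of the 5 GFP libraries.

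Acat1, the mitochondrial thiolase that condenses acetyl units for ketone synthesis, was -0.03 ± 0.08 in Cre and 0.16 ± 0.08 in Flpo against GFP, not called. Bdh1, which reduces acetoacetate to beta-hydroxybutyrate, was 0.18 ± 0.11 and -0.03 ± 0.11, not called.

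The 250 bases before the RefSeq start of Slc16a1, at chr3:104638414-104638663 on the plus strand of GRCm38.p6, are shown because Slc16a1 is the only called member with a match to any motif searched. Capitals mark CACGTG, the E-box, 200 bases before the start.
Slc16a1: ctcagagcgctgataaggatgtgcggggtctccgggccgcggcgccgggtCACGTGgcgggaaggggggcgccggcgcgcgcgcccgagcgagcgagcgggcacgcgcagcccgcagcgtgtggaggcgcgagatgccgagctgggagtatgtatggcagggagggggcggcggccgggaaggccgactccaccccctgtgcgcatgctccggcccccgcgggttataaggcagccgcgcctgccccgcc

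RefSeq windows of 250 bases before to 50 after the start were matched for 32 of the 39 members, 36 windows in all, and searched on both strands. The E-box CACGTG, which reads the same on both strands, was in 2 member windows (Slc16a1 and Aldh3a2) and in 7.15% of all 32851 windows. The direct repeat that PPAR-alpha binds with RXR, searched as 2 copies of AGGTCA with 1 base between them, was in 0 member windows and 0.0396% of all windows, and a looser form with AGGNCA for each copy in 0 and 0.381%. The cyclic AMP element TGACGTCA was in 0 and 1.79%, and the D-box TTATGTAA in 0 and 0.938%. A match is only a match of letters, and these windows leave out introns and distant elements.

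The other members have no step in the cycle itself. Aldh3a2, a fatty aldehyde dehydrogenase, Vnn1, a pantetheinase of coenzyme A turnover, and Creb3l3, a hepatic transcription factor of the fasting response, were not called in any comparison. Aldh3a2 stood at 279 CPM in Cre 1 and at 793 to 1234 CPM in the other Cre libraries. Vnn1 stood at 49.9 CPM in Cre 1 and at 175 to 279 CPM in the others. Creb3l3 ranged from 343 to 514 CPM over all libraries.

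**Figure D3:**
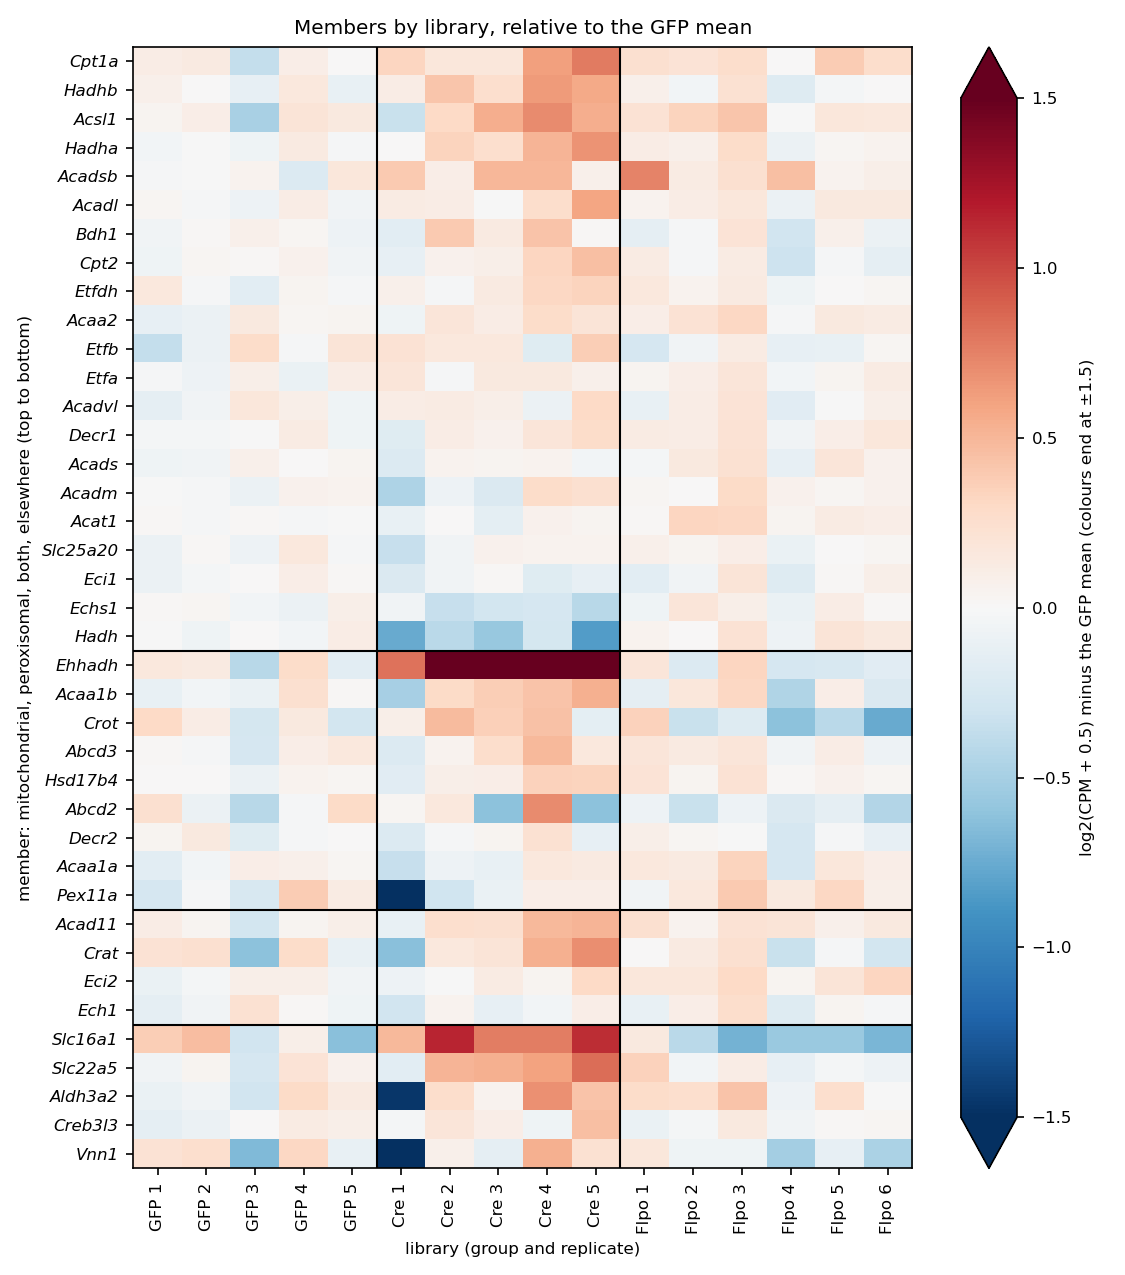
Each member in each library as log2(CPM + 0.5) minus the GFP mean, with colours ending at ±1.5, rows grouped by compartment and columns by group. Ehhadh and Slc16a1 are high and Hadh low across the Cre columns, while Cre 1 stands apart from the other Cre libraries at Pex11a, Aldh3a2 and Vnn1.

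Single libraries lay at the edge of their group in many members. Cre 1 was the lowest Cre library in 7 of 9 peroxisomal and 11 of 21 mitochondrial members. GFP 3 was the lowest GFP library in 5 of 9 peroxisomal members. In Flpo, library 3 was the highest in 16 of 21 mitochondrial members and library 4 the lowest in 17 of 21. Ehhadh in Cre 1 was the lowest of its group and still above every GFP library.

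Mitochondrial and peroxisomal members were then set against each other. The median log2 fold change in Cre against GFP was 0.14 over mitochondrial and 0.15 over peroxisomal members, a difference of 0.01. In Flpo against GFP it was 0.08 and -0.02, a difference of -0.10, and in Flpo against Cre -0.03 and -0.08, a difference of -0.05. These differences of medians were not tested. By calls, 3 of 21 mitochondrial members were higher and 2 lower in Cre against GFP, and 1 of 9 peroxisomal members was higher. Of all genes, 3.97% were higher and 5.58% lower there. In Flpo against Cre, 2 of 21 mitochondrial members were higher and 1 lower, and 2 of 9 peroxisomal members were lower. Of all genes, 7.45% were higher and 6.26% lower in that comparison.

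Library by library, the mean of the 9 peroxisomal members relative to the GFP mean was -0.23, 0.25, 0.20, 0.50 and 0.35 on the log2 scale in Cre 1 to Cre 5, a mean that includes Ehhadh. The mean of the 21 mitochondrial members ran from -0.07 to 0.21 in Cre and from -0.07 to 0.21 in Flpo. In 4 of 5 Cre libraries the peroxisomal mean was the higher of the pair, and in 5 of 6 Flpo libraries it was the lower. The Cre side of this rests largely on Ehhadh, which alone stood at 0.82, 1.63, 1.51, 1.64 and 2.81 in Cre 1 to Cre 5. The medians, which 1 member moves little, differed by 0.01 in Cre against GFP. The distance between the 2 means was -0.18 to 0.09 in GFP, -0.25 to 0.03 in Flpo and -0.16 to 0.29 in Cre, and the ranges overlapped. It averaged 0.12 ± 0.17 in Cre (SD, n = 5) and -0.10 ± 0.09 in Flpo (n = 6), where the GFP mean is 0 by construction with an SD of 0.11, and this contrast of the groups was not tested.

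**Figure D4:**
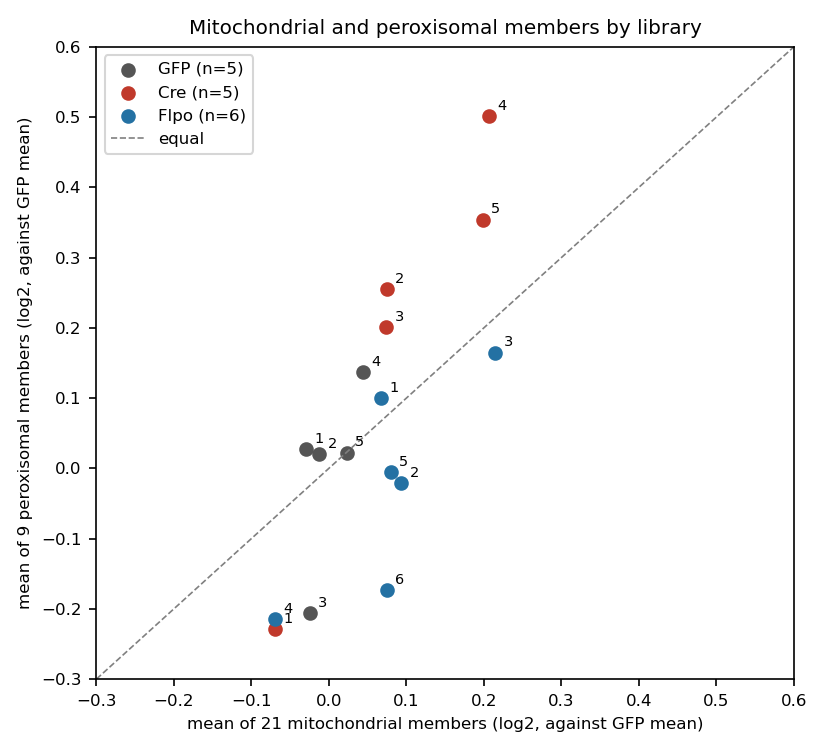
Mean log2 level of the 21 mitochondrial members (horizontal) against that of the 9 peroxisomal members (vertical), both relative to the GFP mean, with 1 numbered point per library and a dashed line where they are equal. Cre 2 to Cre 5 lie above the line and Cre 1 below it, in the range of Flpo 4 and GFP 3. The peroxisomal mean includes Ehhadh, the member with the largest change.

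Other genes of the pathway showed calls in both directions in Cre against GFP, where 3.97% of all genes were higher and 5.58% lower. Of 20 further genes of mitochondrial oxidation tested, 1 was higher (Acsl4, an acyl-CoA synthetase, 0.79) and 4 were lower, among them Hibch of valine breakdown (-0.38), Echdc3 (-0.63) and Acad12 (-0.74). Of 20 further peroxisomal genes, Amacr (0.41) and Pxmp4 (0.44) were higher and 2 were lower, among them Pecr (-0.59). Of 15 peroxins, the proteins that build the organelle, Pex7 (-0.45) and Pex26 (-0.50) were lower.

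Of 9 further ketone body genes tested, 0 were higher and 4 lower: the transporter Slc16a7 (-0.97), Acat3 (-0.83), Bdh2 (-0.88) and Aacs (-1.51), which activates acetoacetate for lipid synthesis. In Flpo against Cre, where 7.45% of all genes were higher and 6.26% lower, 5 of these 9 were higher and 0 lower, as were 7 and 2 of the mitochondrial list, 3 and 5 of the peroxisomal list and 2 and 0 of the peroxins. In Flpo against GFP 0 genes of any of these lists were called by edgeR. The lists were drawn up with earlier results of these data known, so their counts are descriptions.

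Of 16 regulators, 0 were higher and 3 lower in Cre against GFP (3.97% and 5.58% of all genes), and 3 were higher and 1 lower in Flpo against Cre (7.45% and 6.26% of all genes). Ppara, which encodes PPAR-alpha, was 0.40 ± 0.17 in Cre against GFP (edgeR adjusted p = 0.162), not called. Its hepatokine target Fgf21 was 1.45 ± 0.44 in Cre against GFP (adjusted p = 0.0524), just outside the threshold, and -2.11 ± 0.43 in Flpo against Cre (adjusted p = 0.00425). Pparg, the receptor tied to lipid storage, was lower in Cre at -1.35 ± 0.19 (adjusted p = 0.000223). The coactivator Ppargc1a was 0.01 ± 0.28.

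Of 20 circadian clock genes, 5 were lower and 0 higher in Cre against GFP (5.58% and 3.97% of all genes), 12 were higher and 4 lower in Flpo against Cre (7.45% and 6.26%), and 0 were called in Flpo against GFP (0.0288%), where 13 had an unadjusted p under 0.05 (9.73%). Their first principal component, which held 80.8% of their variance, was -2.33 to 2.85 in GFP, 0.99 to 4.31 in Flpo and -5.80 to -0.63 in Cre. With that component as a covariate, Ehhadh was the 1 member still called in Cre against GFP (adjusted p = 0.0404), and no member was called in Flpo against Cre. Every Cre library scored below every Flpo library, so in Flpo against Cre this fit cannot tell the component from the group. Only Cre 4 scored inside the GFP range, so the same holds in large part for Cre against GFP. A call lost in this fit therefore decides nothing about the clock. Over all genes the calls went from 1328 to 139 in Cre against GFP and from 1906 to 1 in Flpo against Cre. In that fit Hadha stood at 0.48, Hadhb at 0.49, Hadh at -0.38 and Slc16a1 at 0.37 on the log2 scale in Cre against GFP, none of them called. In Flpo against Cre, Ehhadh stood at -1.76, Slc16a1 at -0.39 and Crot at -0.07. Cre 4, whose clock score of -0.63 lies inside the GFP range, stood at 1544 CPM for Ehhadh, 92.4 for Slc16a1 and 408 for Hadh. These members were already without overlap between Cre and GFP, so every Cre library lies beyond all GFP libraries there. The part of the clock in these values was not tested.

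Of 9 stellate cell markers, 4 were lower in Cre against GFP, where 3.97% of all genes were higher and 5.58% lower. The 9 markers summed to 84.9 to 143 TPM in GFP, 106 to 156 in Flpo and 48.8 to 95.4 in Cre. None of the 9 was listed at 0 in all libraries of a group. Other cell type markers called in Cre against GFP were 1 higher and 2 lower of 10 for hepatocytes, 1 higher of 6 for endothelium, 1 higher of 5 for cholangiocytes and 1 lower of 3 for blood, with 0 of 7 for macrophages and 0 of 5 for lymphocytes. The part of these markers in the members' values was not tested, and time of harvest and group cannot be told apart.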

How the data were processed

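For 16 liver libraries the authors deposited TPM values and estimated counts, gene by gene. The submitters' processing notes name cutadapt for trimming, STAR for alignment and mm10 as the build, without versions. Which program made the deposited estimated counts, on which annotation and with what strand setting, is not given in the sources used here. Among the estimated counts as deposited, 31.7% were not whole. In 10835 genes with over 20 counts in every library, each equalled the deposited TPM times 1 factor per gene and 1 per library, to within 1.07e-09 on the log2 scale.

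The estimated counts were rounded to whole numbers. In R 4.3.3, edgeR 4.0.16 fitted 1 robust quasi-likelihood model to all 16 libraries, grouped by their titles, after filterByExpr with a minimum count of 10 and TMM scaling, and 3 contrasts were tested. P-values were Benjamini-Hochberg adjusted over 13905 genes and called under 0.05. The script was tested on simulated counts. CPM values use the TMM factors, standard errors come from the F statistic, and 95% intervals are the log2 fold change ± 1.96 standard errors. The total counts are the depth behind each value. Alternatives used DESeq2 1.42.0, limma 3.58.1 and sva 3.50.0.

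The members and lists were chosen with earlier results of these data known. Each of the 39 members may be named. From each other list the called genes of a comparison are named, at most the 4 with the smallest p, and Ppara, Ppargc1a, Fgf21 and Pparg are given whatever their values. Some genes of these lists are not reported here. Alternatives changed the scaling, the filter, the tool, the groups fitted, the unit and the thresholds, added a replicate block, a surrogate variable or a clock score, or left out 1 library. 1 listed symbol, Mut, had no match, and Hmgcll1 did not pass the filter. Positions are from GENCODE M21 (GRCm38) and promoter windows from RefSeq (GRCm38.p6). Figures were drawn with matplotlib 3.10.9.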

Additional observations from a re-analysis of the deposited data

Results flagged for a closer look

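A library was singled out where it lay far from the others of its group, by Dixon's ratio of its gap to the range of the group against the 95% critical value. Of 117 groups of libraries looked at, 3 for each of the 39 members, 6 held such a library. Chance alone gives about 1 in 20 such groups. In CPM, GFP 3 was low for Acsl1 at 1252 and for Acad11 at 369, and GFP 4 was high for Hadha at 599. Cre 5 was high for Ehhadh at 3485, where the next Cre library stood at 1544. Flpo 3 was high for Acadm at 805.5, and Flpo 1 was high for Slc16a1 at 60.2, where the next stood at 40.8.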

How the results depend on the processing

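No called member changed sign under any alternative, and no member was called in Flpo against GFP under any of them. The count of members called in Cre against GFP was 8 as reported, with calls over all genes (1328) in brackets here and below. It was 7 with DESeq2-type size factors (1339), 8 with DESeq2 (1790) and 4 with library totals alone (1956). With limma it was 5 on log2(TPM + 1) (2104) and 5 on log2(TPM + 0.1) (2172). With only the 2 groups compared it was 3 (834), and with the clock score as a covariate 1 (139). At an adjusted p under 0.01 it was 2, and at an adjusted p under 0.05 with at least a 1.5-fold difference 2. Leaving out each library in turn gave 3 to 10, the lowest without GFP 3 (1110) or GFP 5 (960) and the highest without Cre 1 (1182). Over all genes these omissions gave 960 to 1462 calls. The count was 4 without Cre 4 or Cre 5 and 5 without GFP 1, GFP 2 or Cre 2.

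The count in Flpo against Cre, 7 as reported (1906), was 3 at an adjusted p under 0.01 and 3 at 1.5-fold. It was 0 with the clock score (1) and 5 to 8 with 1 library left out (1454 to 2189). By direction it was 4 higher and 2 lower with library totals, and 8 and 2 with limma on log2(TPM + 1), where all genes split into 1810 and 454 and into 2417 and 326. The peroxisomal minus mitochondrial difference in Flpo against Cre was -0.24 with the clock score, a fit in which the score and the group cannot be told apart.

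With the replicate number as a block, fitted without Flpo 6, the count was 3 in Cre against GFP (1019) and 3 in Flpo against Cre (1352). Libraries that share a number correlated at -0.19 to 0.17 in their deviations from the group means, with 1 of 15 pairs over 0.1, and 5 libraries correlated best with their own number, so the numbers were not taken as pairs.

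Ehhadh in Cre against GFP was called in all 32 alternatives. Hadh and Slc16a1 lost that call under 2 of 32 each, Hadhb under 10, Cpt1a under 13, Hadha under 16, Slc22a5 under 17 and Echs1 under 23. The cause of these differences was not tested. The effect of depth on these calls was not tested. The members had at least 792 estimated counts in every library.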
